A study of Mus musculus with 9 samples.

Results

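Wnt ligands, their receptors and their antagonists were described here through the genes of the deposited expression table whose symbols name a Wnt, Frizzled (Fzd), Sfrp, Dkk or R-spondin (Rspo) gene, Lgr4, Lgr5 or Lgr6, Lrp5 or Lrp6, Axin1 or Axin2, a Tcf7 gene, or Wif1, Frzb, Lef1, Znrf3, Rnf43, Nkd1 or Nkd2. This rule was met by 58 of the 26214 genes listed, namely 19 ligands, 12 receptors, 9 genes of the R-spondin axis, 10 secreted antagonists and 8 feedback or nuclear genes. RNA was sequenced from adipose stromal cells (ASCs) of the subcutaneous adipose tissue (ScAT) and from fibroadipogenic progenitors (FAPs) of the quadriceps muscle of male C57Bl/6 mice (C57Bl/6 J, 8 to 12 weeks old, by the methods), on day 1 after an injection into the quadriceps. NaCl at 0.9% was the control injection and glycerol at 50%, which damages myofibers, was the injury. The groups were ASCs after NaCl (3 libraries), FAPs after NaCl (2 libraries) and FAPs after glycerol (3 libraries, injured FAPs). A single library of CD31+CD45+ cells of quadriceps after glycerol had no replicate and entered no test. ASCs and FAPs had been obtained magnetically, by depletion of CD31+ and CD45+ cells and selection for Sca-1. By the methods, triplicates came from a pool of cells of 3 animals, so p-values measure only the spread between these libraries, which may be technical. For FAPs 2 libraries were analysed here.

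Wnt proteins are lipid-modified ligands that bind a Frizzled receptor together with the co-receptor Lrp5 or Lrp6, which stabilises β-catenin and lets it act with Tcf and Lef factors on target genes such as Axin2. Secreted antagonists act outside the cell. Sfrp proteins, Frzb and Wif1 bind Wnt ligands themselves, whereas Dkk1 binds Lrp5 and Lrp6. R-spondins, through Lgr4, Lgr5 or Lgr6, remove the ubiquitin ligases Znrf3 and Rnf43, which otherwise clear Frizzled receptors from the membrane. In adipose precursors, Wnt10b is a known brake on adipogenesis, and in muscle, Wnt signals are known to take part in the fate of satellite cells and of FAPs after injury.

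The deposited values were normalised read counts, that is, whole reads divided by a size factor of the library. Reads on genes numbered 27481573, 27349184 and 27402102 in the ASC libraries, 24052508 and 24164447 in the FAP libraries, 26968235, 26698572 and 27028114 in the injured FAP libraries and 13091077 in the CD31+CD45+ library. In these units 3 reads amounted to 2.29 in the library with the smallest step and to 4.71 in that with the largest, and anything lower cannot be told from 0 by counting error. A single limma fit to log2(value + 1) covered all 3 groups, and p was adjusted by Benjamini and Hochberg across the 13601 genes whose mean over 8 libraries was 10 or more. To pass, a gene needed a log2 fold change past 0.58 together with an adjusted p below 0.05. Because 1 is added to each value, changes of weakly expressed genes come out too small. Of the 58 genes 44 were tested and 14 were not, since their mean was too low.

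Sca-1 (Ly6a), for which the cells were selected, had values of 46513, 49855 and 36777 in ASCs, 16542 and 10823 in FAPs and 24309, 21308 and 24855 in injured FAPs. Pdgfra, the receptor that defines FAPs, reached 10837, 15083 and 13043 in ASCs, 17754 and 17756 in FAPs and 23649, 25268 and 23236 in injured FAPs. The 8 stromal progenitor markers were above 0 in each of the 8 libraries, and their summed value was 2180314, 1694473 and 2052922 in ASCs, 1059775 and 1215929 in FAPs and 437465, 453946 and 405316 in injured FAPs, with Col1a1 as the most abundant gene. Of these 8 markers 6 were higher and 0 lower in ASCs than in FAPs. In injured FAPs 1 was higher and 5 were lower than in FAPs, and 1 was higher and 7 were lower than in ASCs. Thus each group carried the stromal markers of its label, though at different levels. Markers of other cells were present beside them. The 6 tenocyte markers summed to 3255, 2628 and 2312 in ASCs, 246734 and 268204 in FAPs and 191716, 194482 and 178856 in injured FAPs, with Fmod and Thbs4 the most abundant, and the 6 markers of smooth muscle and pericytes summed to 1623, 1092 and 1359.6 in ASCs, 21287 and 18932 in FAPs and 9849, 9448 and 9829.9 in injured FAPs, with Rgs5 or Acta2 the most abundant in FAPs, Cspg4 in injured FAPs and Notch3 in ASCs. Both lists were lower in every ASC library than in any library from muscle. Leukocyte markers (9 genes) summed to 461, 384 and 372 in ASCs, 265 and 497 in FAPs and 556, 2463 and 462 in injured FAPs, so that injured FAP replicate 2 stood above the rest, and Ptprc, which encodes CD45, was at 0 in both FAP libraries. The FAP sums were mostly Cd68 (254 and 477). In each FAP library 6 of the 9 genes were at 0, but none was in any injured FAP library. Of the 6 leukocyte markers tested, 4 were higher and 0 lower in injured FAPs than in FAPs. Epithelial markers (6 genes) summed to 1067, 1.13 and 314 in ASCs, 1.9 and 1.88 in FAPs and 8.63, 7.75 and 5.34 in injured FAPs, and were thus highest in ASC replicates 1 and 3, where Krt8 was the most abundant. Of the 8 endothelial markers, which summed to 6555, 5162 and 6949.8 in ASCs, 6068 and 4213 in FAPs and 1776, 1884 and 1508 in injured FAPs with Tek or Cdh5 among the most abundant, Vwf, Cldn5 and Emcn were listed at 0 in both FAP libraries while Cdh5 was 1438 and 686 there. The ASC sums were mostly Tek (5986, 4841 and 6699.9), and Cdh5 was 122.5, 87.2 and 59 in ASCs. These markers did not go together. Of the 7 tested, 3 were higher and 3 lower in ASCs than in FAPs, and 2 were higher and 3 lower in injured FAPs than in FAPs. Sums were also taken for markers of lymphatic endothelium (217, 145 and 177 in ASCs, 179.7 and 215 in FAPs and 94.9, 104 and 78.6 in injured FAPs) and muscle fibres (149, 103 and 137 in ASCs, 626 and 790.3 in FAPs and 224, 228 and 183 in injured FAPs). Satellite cell markers summed to 5.27, 4.53 and 0 in ASCs, 51.4 and 104 in FAPs and 42.4, 32.5 and 20.6 in injured FAPs, adipocyte markers to 109, 94 and 107 in ASCs, 11.4 and 21.6 in FAPs and 6.28, 6.97 and 1.52 in injured FAPs and mesothelial markers to 19.8, 9.06 and 13.8 in ASCs, 26.6 and 35.8 in FAPs and 41.6, 41.9 and 57.2 in injured FAPs. ASC replicate 1 and injured FAP replicate 2 were left out together in an alternative given at the end. Apart from that, the part of these cells in the results below was not tested. Fewer cells of a type and less RNA per cell cannot be told apart in bulk samples.

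**Figure D1:**
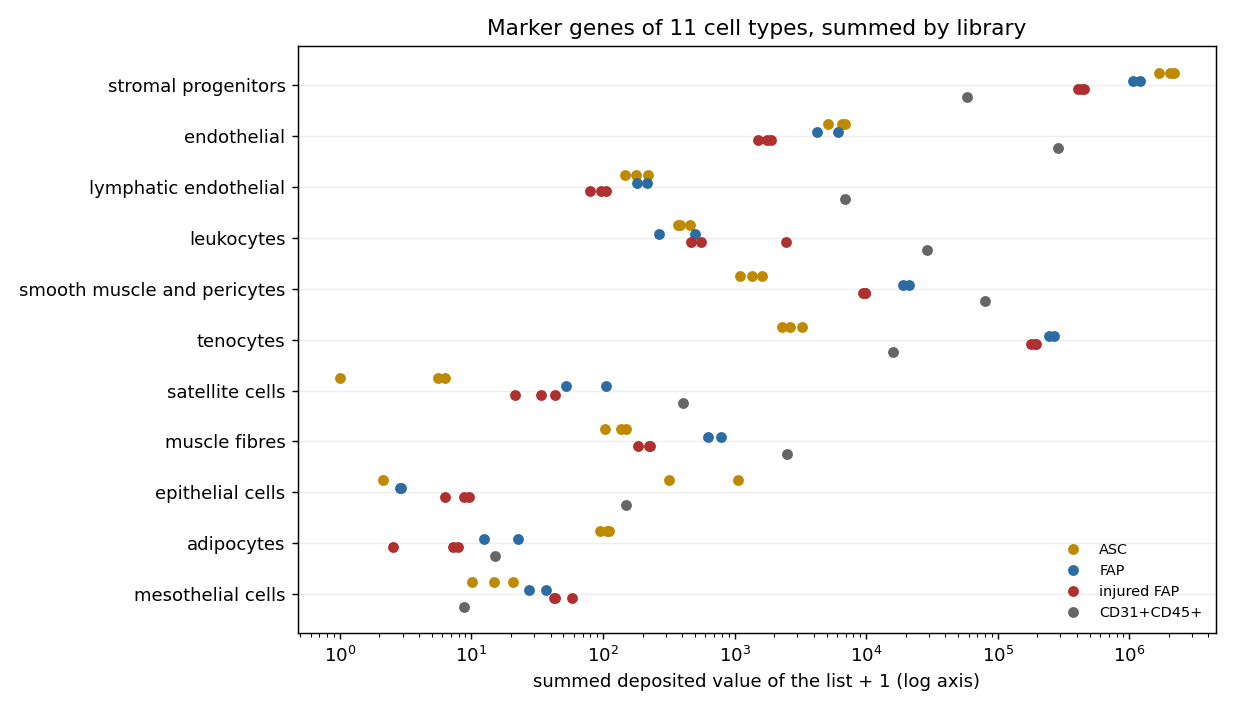
Summed deposited value of the marker genes of 11 cell types (x axis, log axis, plus 1) in each library (1 point each, coloured by group). Tenocyte and smooth muscle markers were lowest in ASCs, and leukocyte markers stood out in 1 injured FAP library at 2463. Endothelial, lymphatic endothelial, leukocyte, smooth muscle, satellite cell and muscle fibre markers were highest in the CD31+CD45+ library.

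Compared with FAPs, ASCs had higher values of 11 members and lower values of 15, among 44 tested. Of the 44 members 39 had a mean of at least 10, the level of the filter, in both groups compared. The others met the filter only through groups where they were higher, so their calls depend in part on it. Over all 13601 genes tested, 47.2% passed this test, 23.4% as higher and 23.8% as lower, against 59.1% of the tested members, 25% as higher and 34.1% as lower. The share of higher calls was thus close to that of all genes and the share of lower calls was larger, and the median log2 fold change was −0.07 for the members and 0.0 for all genes. Scaling all libraries to a common 75th percentile moved the median of all genes to −0.20 and the split of all calls from 3183 higher and 3233 lower to 2452 higher and 4142 lower, with 11 members higher and 16 lower. Single log2 fold changes of members ran from −9.58 for Wif1 to 4.37 for Lgr5.

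In injured FAPs compared with FAPs, 25 members were lower and 4 were higher, namely Wnt2, Wnt2b, Wnt5b and Znrf3. Here too 39 of the 44 tested members had a mean of at least 10 in both groups compared. Among all genes tested 52.6% passed, 24.9% as higher and 27.7% as lower, whereas 9.09% of the tested members were higher and 56.8% lower. The median log2 fold change was −1.08 for the members and −0.05 for all genes, and lay between −1.56 and −0.55 in each of the 5 roles. Lower calls were found in every role, and higher calls among ligands and the R-spondin axis only. Under the common 75th percentile, which moved the median of all genes to −0.14, 4 members were higher and 28 lower. The split of all calls moved with it, from 3388 higher and 3765 lower to 3012 higher and 4201 lower. When only the 2 groups entered the fit, 7 members were higher and 26 lower, the additional 3 being Fzd6, Lgr6 and Tcf7 at low values. Among all 13601 genes this fit called 3472 higher and 3959 lower.

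In injured FAPs compared with ASCs, 21 members were lower and 5 were higher, namely Lgr6, Rspo3, Sfrp5, Wif1 and Tcf7. Lgr6, Wif1 and Tcf7 had ASC means of 1.74, 6.15 and 5.82. They met the filter of 10 only through the groups from muscle, so the direction of their calls was partly fixed by the filter. Of the 44 tested members 37 had a mean of at least 10 in both groups compared. Of all genes tested 50.8% passed, 25% as higher and 25.8% as lower, against 11.4% and 47.7% of the tested members. The median log2 fold change was −0.46 for the members and 0.02 for all genes. With values scaled to a common 75th percentile, which moved the median of all genes to 0.14, 8 members were higher and 21 lower. The split of all calls then moved from 3405 higher and 3504 lower to 3972 higher and 3113 lower. Injured FAPs enter 2 of these 3 comparisons, as do ASCs and FAPs, so the comparisons are not independent of each other.

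**Figure D2:**
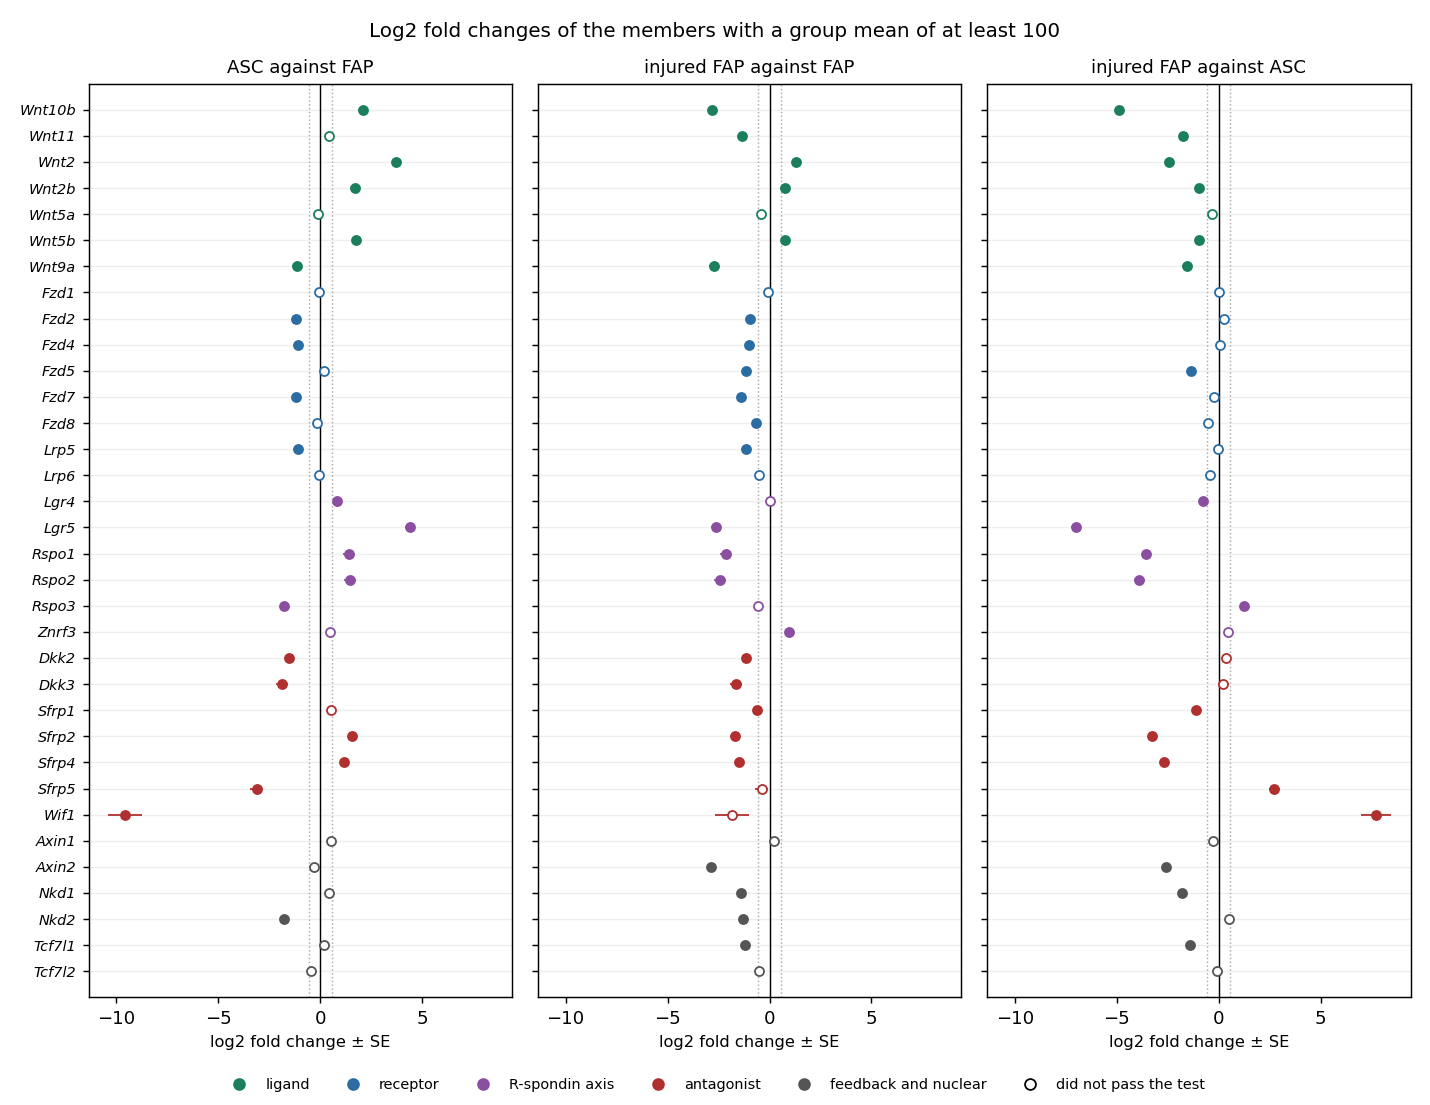
Log2 fold change (x axis) with its SE (bar) of the 34 members with a group mean of at least 100, in each of the 3 comparisons, coloured by role, with filled points for genes that passed the test and dotted lines at 0.58. In injured FAPs against FAPs most filled points lie left of 0, and the 4 to the right are Wnt2, Wnt2b, Wnt5b and Znrf3.

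Promoter sequence was examined because Tcf and Lef factors bind a short core, here searched on both strands as CTTTGAA and with other last letters as CTTTGAT, then as CTTTGTA and with another last letter as CTTTGTT, from 250 bases before to 50 after the start of each gene (RefSeq, GRCm38.p6). A window was on hand for 39 members, of which 7 held a core (17.9%), namely Dkk1, Fzd7, Lef1, Tcf7l2, Wnt3, Wnt5b and Wnt11. The share over all 27025 genes with a window was 18.9%, so the members were no richer in cores than other promoters. Members with a core went in different directions in injured FAPs against FAPs. Fzd7 and Wnt11 were lower, Wnt5b was higher, Tcf7l2 did not pass, and Dkk1, Lef1 and Wnt3 were not tested. The 2 that fell are shown, with Axin2, a textbook β-catenin target that also fell there. Capitals mark the core. The core of Fzd7 began 130 bases before the start and that of Wnt11 51 bases before it, in the first of its 2 windows, and the Axin2 window held none of these letters.
Fzd7, chr1:59481897-59482196, plus strand: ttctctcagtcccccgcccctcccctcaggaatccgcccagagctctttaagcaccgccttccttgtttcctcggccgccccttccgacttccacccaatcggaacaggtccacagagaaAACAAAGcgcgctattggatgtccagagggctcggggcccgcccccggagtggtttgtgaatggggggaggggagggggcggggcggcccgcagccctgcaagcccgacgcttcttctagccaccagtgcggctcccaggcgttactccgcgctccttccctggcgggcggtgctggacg
Wnt11, chr7:98834862-98835161, plus strand: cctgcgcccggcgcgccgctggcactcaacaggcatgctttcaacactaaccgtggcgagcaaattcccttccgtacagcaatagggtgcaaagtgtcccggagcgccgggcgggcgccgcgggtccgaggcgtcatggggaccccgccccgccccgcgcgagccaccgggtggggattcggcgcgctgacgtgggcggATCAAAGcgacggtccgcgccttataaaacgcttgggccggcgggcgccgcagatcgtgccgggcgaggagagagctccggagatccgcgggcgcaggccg
Axin2, chr11:108920099-108920398, plus strand: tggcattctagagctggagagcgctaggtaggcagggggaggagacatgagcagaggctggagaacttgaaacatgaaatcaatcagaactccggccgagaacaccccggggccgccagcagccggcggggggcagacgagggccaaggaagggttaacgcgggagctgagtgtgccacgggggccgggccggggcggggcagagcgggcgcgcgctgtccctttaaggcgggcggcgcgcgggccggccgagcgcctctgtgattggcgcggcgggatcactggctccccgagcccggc
A match is a run of letters and not a measured binding site, and the absence of one in 300 bases says nothing about the factor.

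Counts in each role below are given with their shares of its tested genes, to be read beside the shares of all genes. For ASCs compared with FAPs these were 23.4% higher and 23.8% lower. After injury they were 24.9% and 27.7% relative to FAPs, then 25% and 25.8% relative to ASCs. Among the 19 ligands, 10 were tested. ASCs had higher values of Wnt2, Wnt2b, Wnt5b and Wnt10b than FAPs and lower values of Wnt9a (40% and 10%). In injured FAPs, 3 of these ligands (Wnt2, Wnt2b and Wnt5b) were higher than in FAPs and 5 were lower (30% and 50%). No ligand was higher in injured FAPs than in ASCs by limma, where 8 of 10 were lower (0% and 80%), and at an unadjusted p under 0.05 or with edgeR and DESeq2 the count of higher ligands was likewise 0. With no filter on low values Wnt10a, with values of 3.95, 0 and 1.25 in ASCs, 14.3 and 24.5 in FAPs and 8.63, 5.42 and 15.2 in injured FAPs, passed as higher.

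Wnt2, a ligand of the β-catenin branch, lies at chr6:17988940-18030585, minus strand. Its values were 2046, 1438 and 1534 in ASCs, 149 and 104 in FAPs and 289.5, 289 and 354 in injured FAPs. The 3 groups were thus fully separated, with ASCs highest and injured FAPs above FAPs. It was 13.2-fold higher in ASCs than in FAPs (log2 fold change 3.72, SE 0.20, limma adjusted p = 2.69e-07), 2.45-fold higher in injured FAPs than in FAPs (log2 fold change 1.30, SE 0.20, limma adjusted p = 0.000214) and 5.38-fold lower in injured FAPs than in ASCs (log2 fold change −2.41, SE 0.17, limma adjusted p = 1.09e-06). Its close relative Wnt2b had 112, 139 and 120.5 in ASCs, 44.7 and 31.1 in FAPs and 54.1, 64.3 and 74.8 in injured FAPs, the same order at a lower level. The rise of Wnt2b in injured FAPs was small (log2 fold change 0.76, SE 0.24, limma adjusted p = 0.0182) and no longer passed without FAP replicate 2 (adjusted p = 0.159), without injured FAP replicate 3 (adjusted p = 0.0684) or with a block for the replicate number (adjusted p = 0.0556). Wnt5b, mostly known from the β-catenin-independent branch, had values of 212, 194 and 255 in ASCs, 63.7 and 66.8 in FAPs and 125, 99.2 and 109 in injured FAPs. Again no library of one group reached into another, and the log2 fold change was 1.73 in ASCs and 0.75 in injured FAPs, each against FAPs.

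Wnt10b (chr15:98770712-98778150, minus strand) had 648, 628 and 939 in ASCs, 148 and 197 in FAPs and 25.1, 21.7 and 23.6 in injured FAPs. Injured FAPs thus held the least of this inhibitor of adipogenesis, and every ASC library held more than any FAP library. Wnt10b was 4.28-fold higher in ASCs than in FAPs (log2 fold change 2.08, SE 0.22, limma adjusted p = 2.28e-05). In injured FAPs it fell 7.34-fold compared with FAPs (log2 fold change −2.81, SE 0.22, limma adjusted p = 2.81e-06) and was 31.4-fold lower than in ASCs (log2 fold change −4.89, SE 0.20, limma adjusted p = 2.97e-08). Wnt9a (chr11:59306928-59333552, plus strand) had 638, 327 and 421 in ASCs, 1162 and 842 in FAPs and 162, 131 and 156 in injured FAPs, so that FAPs, and not ASCs, were highest. It was 2.17-fold lower in ASCs than in FAPs (log2 fold change −1.15, SE 0.25, limma adjusted p = 0.00283) and 6.71-fold lower in injured FAPs than in FAPs (log2 fold change −2.73, SE 0.25, limma adjusted p = 8.44e-06). Against ASCs, injured FAPs were 3.09-fold lower for Wnt9a (log2 fold change −1.57, SE 0.23, limma adjusted p = 0.000141).

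Wnt11, a ligand of morphogenetic movements that mostly acts without β-catenin, had 1814, 1612 and 2038 in ASCs, 1305 and 1366 in FAPs and 581, 463 and 558 in injured FAPs. Values in injured FAPs were below all others, with a log2 fold change of −1.33 against FAPs and −1.77 against ASCs, whereas ASCs against FAPs (0.44) stayed under the fold threshold. Wnt5a, the best known ligand of the β-catenin-independent branch, had 743, 923 and 1326 in ASCs, 1028 and 1095 in FAPs and 826, 727 and 802 in injured FAPs. It passed no test in the 3 comparisons, unlike the other ligands with a group mean of at least 100. The remaining tested ligands were Wnt1, Wnt4 and Wnt6, with group means of 5.68 to 39.98. Wnt1 and Wnt4 were lower in injured FAPs than in both other groups, although for Wnt1 an injured FAP library lay within the ASC range, and its fall from FAPs no longer passed without FAP replicate 2 (adjusted p = 0.0721). Of the 9 ligands not tested, Wnt3, Wnt3a, Wnt8a and Wnt8b were at 0 in all 9 libraries, and the other 5 (Wnt7a, Wnt7b, Wnt9b, Wnt10a and Wnt16) had group means of 0 to 19.36. Wnt7b was 25, 0 and 6.28 in the ASC libraries, the same order as the epithelial marker Krt8 (484, 0 and 137), and its part from such cells was not tested. Of its exon sequence 6.61% is shared with the antisense gene AU022754.

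**Figure D3:**
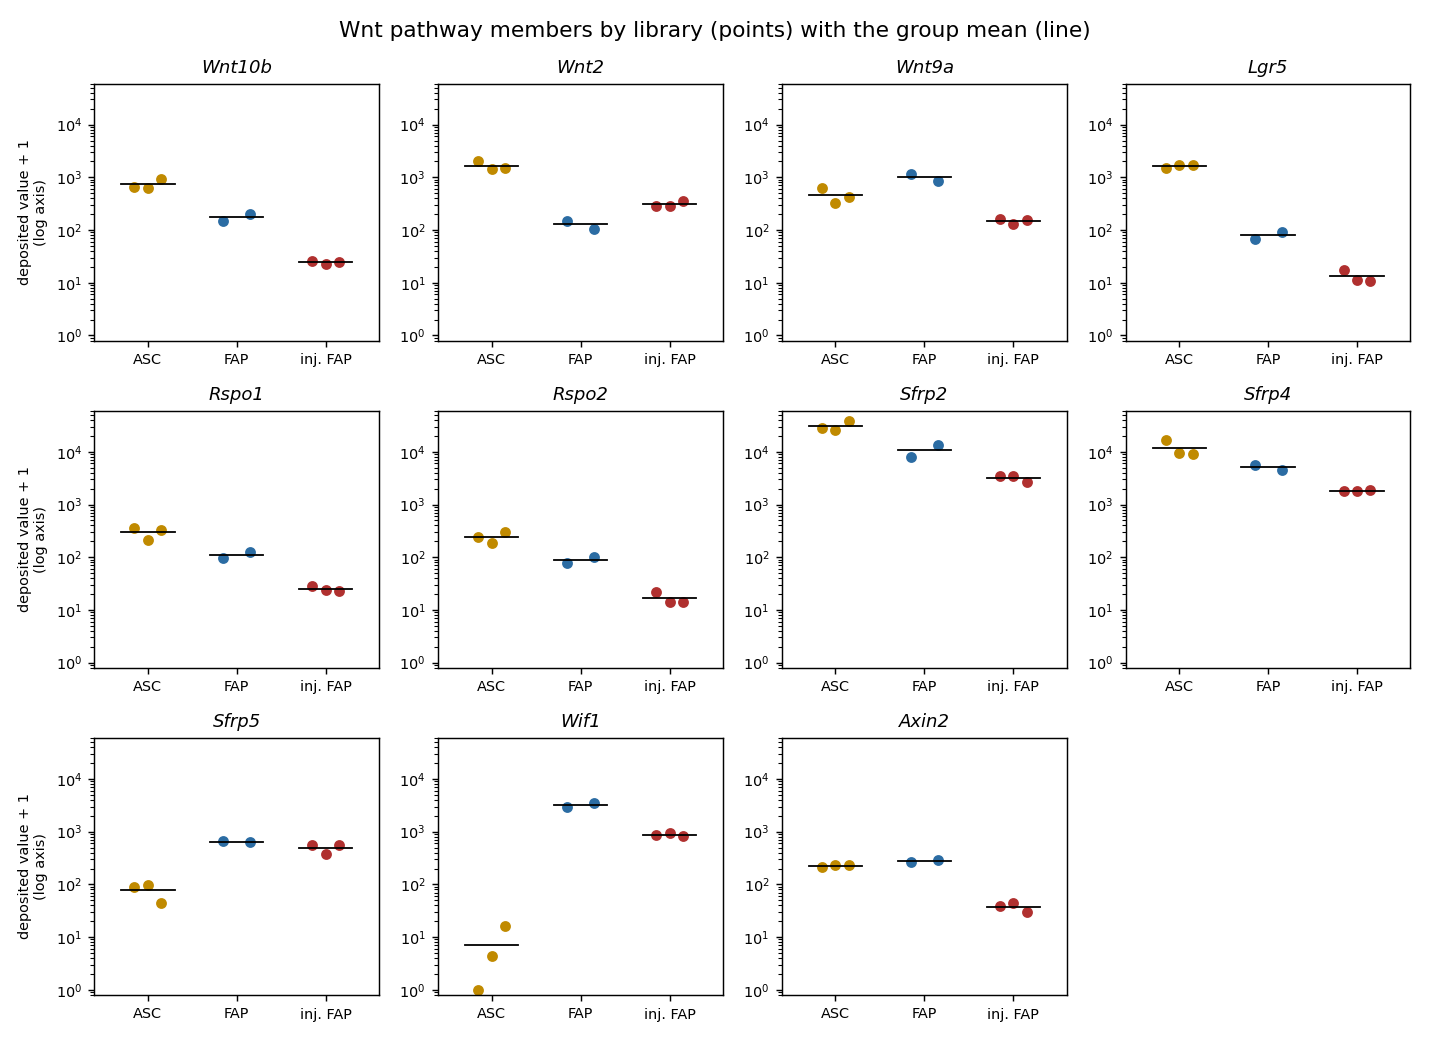
Deposited value plus 1 (y axis, log axis) of 11 members in each library (points) with the group mean (line). Wnt10b, Lgr5, Rspo1, Rspo2, Sfrp2 and Sfrp4 step down from ASCs to FAPs to injured FAPs, Wnt2 is lowest in FAPs, Axin2 is low in injured FAPs only, and Wif1 lies between 0 and 15.1 in ASCs.

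Some ligand genes sit side by side. Wnt10b and Wnt1 lie 11706 bases apart on chromosome 15, on opposite strands, and Wnt6 and Wnt10a lie 6193 bases apart on chromosome 1 (GENCODE M21, GRCm38). Wnt10b and Wnt1 were both lower in injured FAPs than in FAPs, by log2 fold changes of −2.81 and −2.18, but differed in ASCs against FAPs, with 2.08 and −0.33. Wnt3a and Wnt9a lie 16175 bases apart on chromosome 11, and Wnt3a was at 0 in each library while Wnt9a was abundant.

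Among the 12 receptors, ASCs had lower values of Fzd2, Fzd4, Fzd7, Fzd9 and Lrp5 than FAPs and higher values of Fzd10 (41.7% lower and 8.33% higher). Injured FAPs had lower values of 7 receptors than FAPs and higher values of none by limma (58.3% and 0%, against 27.7% and 24.9% of all genes). At an unadjusted p under 0.05 the count of higher receptors was 1 and with edgeR and DESeq2 it was 0 and 0. The receptor concerned was Fzd6, which also passed as higher with quantile normalization (log2 fold change 1.08, limma adjusted p = 0.00563) and with only the 2 groups compared (0.60, limma adjusted p = 0.0482). Against ASCs, 9 of the 12 receptors did not pass in injured FAPs, and Fzd3, Fzd5 and Fzd10 were lower (25%, close to the 25.8% of all genes). Of the 9, Fzd6 passed as higher with a common 75th percentile (0.67) or edgeR (0.66), Fzd9 did so without ASC replicate 1 (1.16), and Fzd8 and Lrp6 passed as lower with no fold threshold.

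Fzd2 had 643, 1151 and 940.3 in ASCs, 2048 and 2015 in FAPs and 1009, 1102 and 1071 in injured FAPs. Fzd4 reached 749.6, 931 and 1112 in ASCs, 1973 and 1974 in FAPs and 946, 1022 and 945 in injured FAPs. Fzd7 values were 885, 796 and 924 in ASCs, 2075 and 1848 in FAPs and 763, 734 and 748 in injured FAPs. For these 3 Frizzled genes both FAP libraries stood above every ASC and injured FAP library, and ASCs and injured FAPs were close to each other. Lrp5, a co-receptor with Frizzled, followed the same course with 2684, 2582 and 2843 in ASCs, 5770.0 and 5886 in FAPs and 2855, 2627 and 2465 in injured FAPs. The log2 fold change in ASCs against FAPs was −1.20 for Fzd2, −1.10 for Fzd4, −1.18 for Fzd7 and −1.11 for Lrp5. In injured FAPs against FAPs it was −0.94, −1.02, −1.39 and −1.14 in the same order, with adjusted p from 2.59e-06 to 0.00178 by limma.

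Fzd5 had 1059, 762 and 1016 in ASCs, 787 and 840.1 in FAPs and 394, 335 and 369 in injured FAPs and was lower in injured FAPs than in both other groups, with log2 fold changes of −1.15 against FAPs and −1.36 against ASCs. Fzd8 had 899.8, 917 and 969 in ASCs, 1012 and 1042 in FAPs and 640.2, 642 and 686 in injured FAPs and was lower in injured FAPs than in FAPs (−0.65). Against ASCs its values were also lower without overlap, but the log2 fold change (−0.50) stayed within the fold threshold. Fzd1 was 1489, 1600.4 and 1568 in ASCs, 1714 and 1521 in FAPs and 1591, 1665 and 1391 in injured FAPs and passed no test, with log2 fold changes between −0.06 and −0.01. The second co-receptor, Lrp6, had 5836, 4702 and 5006 in ASCs, 5721 and 5223 in FAPs and 3940.4, 3851 and 3807 in injured FAPs. Its fall in injured FAPs (−0.50 against FAPs) stayed within the fold threshold, although no injured FAP library reached the FAP libraries, and it passed with quantile normalization (−0.67) or a common 75th percentile (−0.59). In ASCs against FAPs it passed with quantile normalization only (−0.615). The receptors at lower values were Fzd3, Fzd6, Fzd9 and Fzd10, with group means of 5.71 to 94.44. Fzd10 was 43.5, 102 and 127 in ASCs, 7.61 and 12.2 in FAPs and 10.2, 4.65 and 2.29 in injured FAPs, about 9.15-fold higher in ASCs than in FAPs, and Fzd9 was 15.8, 12.5 and 5.02 in ASCs, 62.8 and 90.3 in FAPs and 19.6, 17.8 and 19.8 in injured FAPs, highest in FAPs. Fzd3 was lower in injured FAPs than in ASCs (−0.72), a call that was lost without ASC replicate 1 (adjusted p = 0.0681), without injured FAP replicate 1 (adjusted p = 0.0867) or without injured FAP replicate 2 (adjusted p = 0.0586).

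Lgr5, Rspo1 and Rspo2 were highest in ASCs and lowest in injured FAPs, while Rspo3 was highest in FAPs and Znrf3 in injured FAPs. Of the 9 genes 7 were tested, of which 57.1% were higher and 28.6% lower in ASCs than in FAPs. In injured FAPs 14.3% were higher and 42.9% lower than in FAPs, and 28.6% higher and 57.1% lower than in ASCs.

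Lgr5 (chr10:115450311-115587780, minus strand), an R-spondin receptor and a stem cell marker in several epithelia, had 1528, 1698 and 1709 in ASCs, 66.6 and 92.2 in FAPs and 16.5, 10.1 and 9.91 in injured FAPs. The 3 ASC libraries lay within a narrow range, and no injured FAP library exceeded 16.5. Lgr5 was 20.7-fold higher in ASCs than in FAPs (log2 fold change 4.37, SE 0.24, limma adjusted p = 3.71e-07), 6.53-fold lower in injured FAPs than in FAPs (log2 fold change −2.63, SE 0.24, limma adjusted p = 8.05e-06) and 135-fold lower in injured FAPs than in ASCs (log2 fold change −7.00, SE 0.22, limma adjusted p = 7.48e-09). Its relative Lgr4 had 1074, 1035 and 1011 in ASCs, 600.0 and 589.9 in FAPs and 609, 571 and 657 in injured FAPs. Lgr4 was thus higher in ASCs (0.80 against FAPs), and injured FAPs overlapped FAPs (0.04, adjusted p = 0.757 by limma). The third receptor, Lgr6, had 3.95, 0 and 1.25 in ASCs, 7.61 and 5.64 in FAPs and 17.3, 17.8 and 26.7 in injured FAPs. Lgr6 was higher in injured FAPs than in ASCs (log2 fold change 3.25, SE 0.61, limma adjusted p = 0.000871). The size of this difference rests on a few reads in ASCs, with log2 fold changes from 1.559 to 3.819 over the alternatives. The lower value of Lgr6 in ASCs than in FAPs (limma adjusted p = 0.0463) was lost under 14 of 19 alternatives and also rested on a few reads.

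Rspo1 (chr4:124986430-125009099, plus strand) had 356, 208 and 323 in ASCs, 94.1 and 126 in FAPs and 27.5, 23.2 and 21.4 in injured FAPs. Rspo2 (chr15:43020794-43170826, minus strand) had 237, 185 and 306 in ASCs, 76.1 and 99.7 in FAPs and 20.4, 13.2 and 13 in injured FAPs. Both ligands of the Lgr receptors stepped down from ASCs to FAPs to injured FAPs with no overlap. For Rspo1 the difference was 2.68-fold in ASCs against FAPs (log2 fold change 1.40, SE 0.27, limma adjusted p = 0.00116), and injured FAPs were 4.58-fold lower than FAPs (log2 fold change −2.14, SE 0.27, limma adjusted p = 5.68e-05) and 12.3-fold lower than ASCs (log2 fold change −3.54, SE 0.24, limma adjusted p = 6.37e-07). For Rspo2 it was 2.76-fold in ASCs against FAPs (log2 fold change 1.44, SE 0.29, limma adjusted p = 0.00176), with injured FAPs 5.67-fold lower than FAPs (log2 fold change −2.44, SE 0.29, limma adjusted p = 4.49e-05) and 15.6-fold lower than ASCs (log2 fold change −3.88, SE 0.26, limma adjusted p = 6.54e-07). Rspo3 went another way, with 43.5, 48.7 and 60.3 in ASCs, 177 and 177 in FAPs and 104, 134 and 124 in injured FAPs. FAPs were highest and ASCs lowest for Rspo3, with log2 fold changes of −1.79 in ASCs compared with FAPs and 1.24 in injured FAPs compared with ASCs, whereas the fall after injury (−0.55) stayed under the fold threshold but passed with a common 75th percentile (−0.65) or a replicate block (−0.63). The ubiquitin ligase Znrf3 had 237, 239 and 236 in ASCs, 173 and 165 in FAPs and 319, 337 and 340.2 in injured FAPs and was the only gene of the axis that was higher in injured FAPs than in FAPs (0.97, adjusted p = 8.41e-05 by limma), whereas Lgr6 did not pass there (adjusted p = 0.0784) but did in 6 of 19 alternatives, among them edgeR (adjusted p = 0.0222) and DESeq2 (adjusted p = 0.0428). Rnf43, its close relative, did not exceed a value of 2.63 in any library, and Rspo4 did not exceed 8.56.

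Secreted antagonists had the highest summed level per kb of the longest transcript of the 5 roles in ASCs, FAPs and injured FAPs. ASCs had higher values of Sfrp2 and Sfrp4 than FAPs and lower values of Dkk2, Dkk3, Frzb, Sfrp5 and Wif1 (25% and 62.5%). Frzb and Wif1, with ASC means of 2.81 and 6.15, met the filter of 10 only through the groups from muscle. In injured FAPs 6 of the 8 tested antagonists were lower than in FAPs (75%, against 27.7% of all genes) and none was higher by limma (0%, against 24.9%), nor at an unadjusted p under 0.05 (0) or with edgeR (0) or DESeq2 (0). The 3 tested Sfrp genes other than Sfrp5 fell from ASCs to injured FAPs, whereas Sfrp5 and Wif1 were higher in injured FAPs than in ASCs.

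Sfrp2 (chr3:83766321-83774316, plus strand) had 28921, 25963 and 38086 in ASCs, 8071 and 13308 in FAPs and 3427, 3473 and 2712 in injured FAPs. Sfrp4 (chr13:19623104-19632994, plus strand) had 17112, 9626 and 9285 in ASCs, 5668 and 4558 in FAPs and 1820.3, 1772 and 1866 in injured FAPs. Both decoys for Wnt ligands were thus high in each ASC library and at least 1311 in every library of the 3 groups, as was Sfrp1 with 3388, 2564 and 3538 in ASCs, 2188 and 2193 in FAPs and 1490.0, 1526 and 1311 in injured FAPs. Sfrp2 was 2.9-fold higher in ASCs than in FAPs (log2 fold change 1.56, SE 0.22, limma adjusted p = 0.000176), 3.34-fold lower in injured FAPs than in FAPs (log2 fold change −1.70, SE 0.22, limma adjusted p = 8.02e-05) and 9.67-fold lower in injured FAPs than in ASCs (log2 fold change −3.26, SE 0.20, limma adjusted p = 3.34e-07). Sfrp4 was 2.35-fold higher in ASCs than in FAPs (log2 fold change 1.18, SE 0.23, limma adjusted p = 0.00124), a call lost with quantile normalization (log2 fold change of 0.53), 2.81-fold lower in injured FAPs than in FAPs (log2 fold change −1.48, SE 0.23, limma adjusted p = 0.00024) and 6.6-fold lower than in ASCs (log2 fold change −2.66, SE 0.20, limma adjusted p = 1.51e-06). Over the alternatives the log2 fold change of Sfrp2 in ASCs against FAPs ran from 0.754 to 1.922. Sfrp1 was lower in injured FAPs than in ASCs (−1.12). Its fall against FAPs (−0.61) was close to the fold threshold and was lost without injured FAP replicate 3 (−0.54) or with edgeR (−0.56).

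Sfrp5 (chr19:42197971-42202252, minus strand), known as an antagonist of Wnt5a in adipose tissue, had 89.6, 97.4 and 43.9 in ASCs, 652 and 631 in FAPs and 565, 369.7 and 564 in injured FAPs. The libraries from muscle were thus all above the ASC libraries. Sfrp5 was 8.34-fold lower in ASCs than in FAPs (log2 fold change −3.12, SE 0.32, limma adjusted p = 1.72e-05) and 6.49-fold higher in injured FAPs than in ASCs (log2 fold change 2.74, SE 0.28, limma adjusted p = 1.25e-05), while injured FAPs against FAPs did not pass (log2 fold change −0.39, SE 0.32, limma adjusted p = 0.296).

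Wif1 (chr10:121033960-121100650, plus strand), which binds Wnt proteins in the extracellular space, had 0, 3.4 and 15.1 in ASCs, 2878 and 3468 in FAPs and 874, 925 and 819.9 in injured FAPs. It was nearly absent from ASCs, at 0 in replicate 1 and at the value of 3 reads in replicate 2, and it was abundant in both groups from muscle. It was lower in ASCs than in FAPs (log2 fold change −9.58, SE 0.83, limma adjusted p = 6.17e-06) and higher in injured FAPs than in ASCs (log2 fold change 7.72, SE 0.74, limma adjusted p = 7.63e-06). The size of both differences rests on a few reads in ASCs. Without ASC replicate 1 the log2 fold changes were −8.56 and 6.70, and without ASC replicate 3 they were −10.56 and 8.70. Injured FAPs were 3.64-fold lower than FAPs with no overlap, yet this did not pass in the fit of 3 groups (log2 fold change −1.86, SE 0.83, limma adjusted p = 0.0704), in which the spread is shared with the ASC values near 0. It passed in 9 of 20 alternatives, and the adjusted p ranged from 2.67e-07, when only the 2 groups entered, to 0.223 without FAP replicate 2. All 6 tenocyte markers were lower in ASCs than in FAPs as well, but they did not agree after injury. In injured FAPs 4 of 6 were lower than in FAPs, among them Tnmd (117, 149.5 and 192 in ASCs, 3792 and 4542 in FAPs and 1611, 1554 and 1586 in injured FAPs) and Scx (9.22, 4.53 and 7.53 in ASCs, 597 and 582 in FAPs and 329.5, 243 and 272 in injured FAPs), and Mkx did not pass. Thbs4, one of the 2 most abundant, had 859, 777 and 719 in ASCs, 115741 and 109172 in FAPs and 144210.0, 145137 and 139812 in injured FAPs, higher in every injured FAP library than in both FAP libraries though within the fold threshold (log2 fold change 0.35). The part of tenocytes in the Wif1 values was not tested.

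Dkk2 had 692, 1087 and 1317 in ASCs, 2906 and 2791 in FAPs and 1484, 1228 and 1189 in injured FAPs. Dkk3 had 655, 374 and 267 in ASCs, 1362 and 1609.7 in FAPs and 525, 408 and 491 in injured FAPs. Both were highest in FAPs, and ASCs and injured FAPs overlapped. Against FAPs the log2 fold change of Dkk2 was −1.51 in ASCs and −1.14 in injured FAPs, and that of Dkk3 was −1.88 and −1.65. Frzb was the tested antagonist with the lowest values, 0, 3.4 and 5.02 in ASCs, 34.2 and 50.8 in FAPs and 14.9, 3.88 and 6.86 in injured FAPs. It was higher in FAPs than in ASCs (log2 fold change −3.84, SE 0.80, limma adjusted p = 0.00205), and its fall in injured FAPs (adjusted p = 0.0253) was lost in 5 of 19 alternatives, among them without FAP replicate 1 (0.0665), without FAP replicate 2 (0.141), without injured FAP replicate 2 (0.0745) and without injured FAP replicate 3 (0.065). The size of the Frzb difference in ASCs against FAPs rests on a few reads in ASCs. Its log2 fold change ran from −4.348 to −2.235 over the alternatives. Dkk4 was at 0 in all 9 libraries, and Dkk1, the best known Dkk gene, did not exceed 5.27.

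Among the feedback and nuclear genes, Axin2 and Nkd1, both induced by β-catenin signalling in many tissues, were lower in injured FAPs than in both other groups. Of the 7 tested genes of this role 57.1% were lower in injured FAPs than in FAPs, against 27.7% of all genes. None was higher by limma, nor at an unadjusted p under 0.05 (0), while edgeR called 0 and DESeq2 0. The exception was Tcf7, which passed as higher with quantile normalization (log2 fold change 1.12, limma adjusted p = 0.0202) and with only the 2 groups compared (0.67, limma adjusted p = 0.0316).

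Axin2 (chr11:108920349-108950783, plus strand), a scaffold of the complex that degrades β-catenin, had 209.5, 229.9 and 227 in ASCs, 259.6 and 285 in FAPs and 37.7, 43.4 and 29 in injured FAPs. ASCs and FAPs were near each other (log2 fold change −0.29, SE 0.20, limma adjusted p = 0.231), and injured FAPs were far below. The fall was 7.42-fold against FAPs (log2 fold change −2.88, SE 0.20, limma adjusted p = 1.52e-06) and 6.06-fold against ASCs (log2 fold change −2.58, SE 0.18, limma adjusted p = 7.93e-07). Nkd1, which restrains Dishevelled, had 739, 550.4 and 600.1 in ASCs, 455.5 and 491 in FAPs and 221, 153 and 162 in injured FAPs. Its log2 fold change was −1.42 against FAPs and −1.82 against ASCs in injured FAPs, with adjusted p of 8.11e-05 and 5.19e-06 by limma. Its relative Nkd2 had 191, 248 and 259 in ASCs, 814 and 786 in FAPs and 317, 344 and 309 in injured FAPs. Nkd2 was highest in FAPs, with log2 fold changes of −1.79 in ASCs and −1.31 in injured FAPs against them. Axin1, the constitutive paralogue of Axin2, had 1858, 1482 and 1593 in ASCs, 1182 and 1136 in FAPs and 1339, 1376 and 1386 in injured FAPs and passed no test in the 3 comparisons, but did in 2 of them when no fold threshold was set.

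Of the transcription factors, Tcf7l1, mostly known as a repressor, had 6246, 4669.7 and 5635 in ASCs, 4621 and 5188 in FAPs and 2461, 2094 and 1805 in injured FAPs. It was lower in injured FAPs, with log2 fold changes of −1.22 against FAPs and −1.38 against ASCs, and ASCs overlapped FAPs. Part of its exon sequence (4.56%) overlaps the antisense gene Gm15401, whose reads cannot be told apart without strand. Tcf7l2 was 839, 921 and 994 in ASCs, 1102 and 1402 in FAPs and 909, 1013 and 724 in injured FAPs and passed no test, but it passed as lower than in FAPs under several alternatives, both in ASCs and in injured FAPs. These were a common 75th percentile (−0.65 and −0.60), quantile normalization (−0.61 and −0.64), no fold threshold (−0.44 and −0.51), leaving out FAP replicate 1 (−0.61 and −0.68) and, for injured FAPs only, leaving out injured FAP replicate 2 (−0.615). Tcf7 was 7.9, 4.53 and 5.02 in ASCs, 21.9 and 26.3 in FAPs and 38.5, 40.3 and 37.4 in injured FAPs, lowest in ASCs (−1.91 against FAPs, adjusted p = 0.0011 by limma). Lef1 was 3.95, 0 and 0 in ASCs, 0 and 0 in FAPs and 3.92, 0.775 and 0 in injured FAPs and was not tested. These stromal cells thus carried mainly Tcf7l1 and Tcf7l2 RNA.

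Levels of different genes were compared as the value per kb of the longest annotated transcript, given as mean ± SD (n = 3 for ASCs and injured FAPs, n = 2 for FAPs). Among ligands in ASCs this level was 742 ± 145 for Wnt2, 528 ± 61.7 for Wnt11 and 272 ± 64.3 for Wnt10b. In FAPs it was 387 ± 12.6 for Wnt11, 301.8 ± 68.2 for Wnt9a and 151 ± 6.78 for Wnt5a. In injured FAPs it was 155 ± 18.1 for Wnt11, 138 ± 16.5 for Wnt2 and 112 ± 7.38 for Wnt5a. The leading ligand per length was thus Wnt2 in ASCs, beyond the spread of Wnt11 there, and Wnt11 in FAPs, while in injured FAPs Wnt11 and Wnt2 were within their spread. This order depends on the length. With the median transcript length, Wnt5a led in injured FAPs (626 ± 41.2), while Wnt11 and Wnt5a were within their spread in ASCs (1143 ± 134 and 795 ± 238) and in FAPs (838 ± 27.2 and 846 ± 37.9).

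Among antagonists the level per kb of Sfrp2 was 15472 ± 3156 in ASCs, 5337 ± 1849 in FAPs and 1599.5 ± 213 in injured FAPs. It was the highest of the 10 antagonists in each group by either length. The second place was held by Sfrp4 in ASCs (2966 ± 1093) and by Wif1 (1383 ± 182) or Sfrp4 (1263 ± 194) in FAPs, which did not differ beyond their spread, while by the median length Sfrp4 (3493 ± 536) was above Wif1 (1454 ± 191) there. Sfrp2 and Sfrp4 together made up 93.6% to 94.3% of the summed level of the antagonists in ASCs, but 62.2% and 68.4% in FAPs and, after injury, 56% to 60.8%. By the median length these shares were 97.9% to 98.2%, 83.7% and 87.3%, and 80.1% to 83.1%. The antagonists of ASCs were thus more unequal than those of the muscle cells.

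The summed level per kb of the 19 ligands was 2141, 1730.3 and 2123 in ASCs, 1082 and 1017 in FAPs and 565, 493 and 579.8 in injured FAPs. For the 10 antagonists the sum was 19871, 16385 and 22584 in ASCs, 8729 and 11364 in FAPs and 3741, 3573 and 3238 in injured FAPs. For the 9 genes of the R-spondin axis it was 850.5, 782 and 882 in ASCs, 296 and 323 in FAPs and 232, 232 and 247 in injured FAPs. These 3 sums stepped down from ASCs to FAPs to injured FAPs with no overlap between groups. The 12 receptors had another order, with sums of 2102, 2115 and 2217 in ASCs, 3305 and 3184 in FAPs and 1894, 1899 and 1804 in injured FAPs, highest in FAPs. For the 8 feedback and nuclear genes the sum was 3053, 2428 and 2809 in ASCs, 2513 and 2777 in FAPs and 1566.5, 1475 and 1294 in injured FAPs. There ASCs and FAPs overlapped, and injured FAPs were lowest. The ratio of the antagonist sum to the ligand sum lay at 9.28 to 10.6 for ASCs, at 8.07 and 11.2 for FAPs and, after injury, 5.58 to 7.25, so that injured FAPs were lower. With the median transcript length the ratio was 16.8 to 18.3 for ASCs, 9.24 and 12.9 for FAPs and, after injury, 5.49 to 7.35, so that ASCs and FAPs overlapped by the longest transcript but not by the median length.

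**Figure D4:**
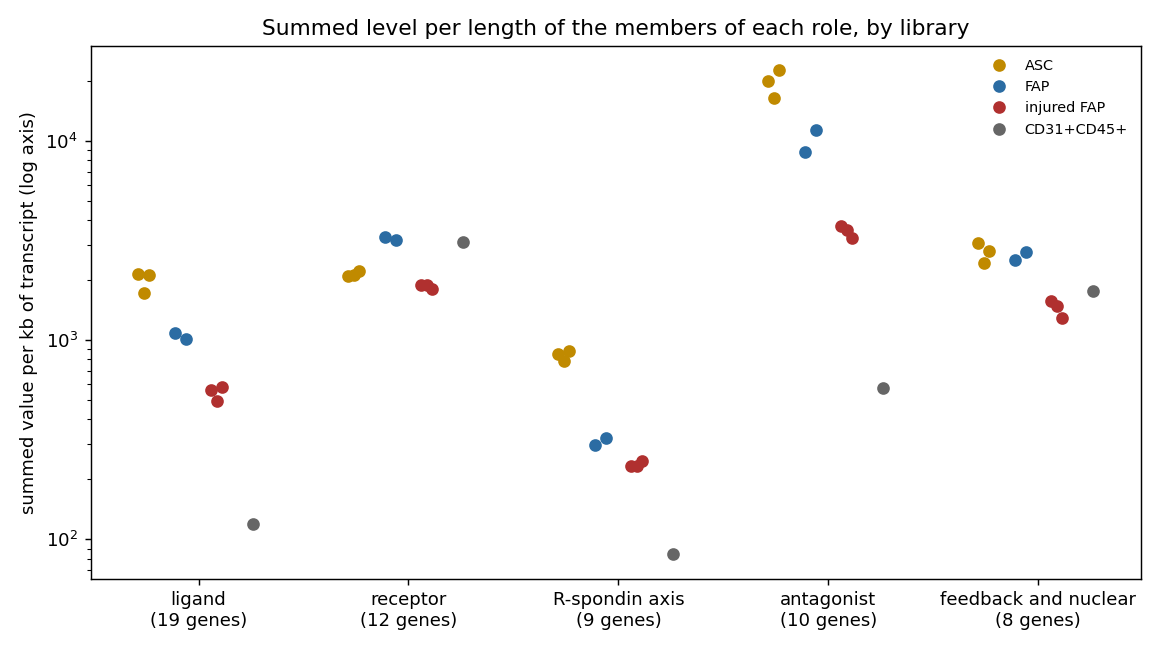
Summed deposited value per kb of the longest transcript (y axis, log axis) of the members of each role (x axis), 1 point per library, coloured by group. Ligands, R-spondin axis and antagonists step down from ASCs to injured FAPs, whereas receptors are highest in FAPs among the 3 groups, at 3184 and 3305.

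Other genes of the pathway were followed through 6 lists, 101 genes in all, of which 92 were tested. ASCs had 30 of them higher and 21 lower than FAPs (32.6% and 22.8%, against 23.4% and 23.8% of all genes tested). After injury 14 were higher and 31 lower than in FAPs (15.2% and 33.7%, against 24.9% and 27.7%), and 13 higher and 34 lower than in ASCs (14.1% and 37%, against 25% and 25.8%). In either direction 55.4%, 48.9% and 51.1% of the tested genes of the lists passed, against 47.2%, 52.6% and 50.8% of all genes. The counts of each list below are given with their shares of its tested genes, to be read beside these shares of all genes. Their median log2 fold change was 0.19, −0.29 and −0.40 in these comparisons.

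Genes of Wnt secretion and release (11 of 12 tested) had 6 higher and 1 lower in ASCs than in FAPs (54.5% and 9.09%). After injury 4 were higher and 3 lower than in FAPs (36.4% and 27.3%), and 2 higher and 6 lower than in ASCs (18.2% and 54.5%). Wls, the carrier that brings Wnt proteins to the membrane, was higher in ASCs than in FAPs (log2 fold change 0.71) and did not pass between both FAP groups (−0.02). The glypican Gpc3 fell in injured FAPs, from 7431 ± 270.1 in FAPs to 2110.5 ± 157 (−1.82), as did Gpc6 (−1.47), while Vps35, a retromer subunit that recycles Wls, rose (0.83). Cytoplasmic transduction genes (22 tested) had 5 higher and 3 lower in ASCs than in FAPs (22.7% and 13.6%). After injury 2 were higher and 4 lower than in FAPs (9.09% and 18.2%), and 1 was higher and 5 lower than in ASCs (4.55% and 22.7%). Ctnnb1, which encodes β-catenin, Apc, Gsk3a and Gsk3b passed in none of the 3 comparisons. Casein kinase Csnk1a1 was higher in ASCs (0.87) and injured FAPs (0.83) than in FAPs, and Dvl3, a Dishevelled gene, was lower in injured FAPs than in FAPs (−0.78). Among 15 nuclear cofactors, 2 were higher and 5 lower in ASCs than in FAPs (13.3% and 33.3%). After injury none was higher and 5 were lower than in FAPs by limma (0% and 33.3%, higher at an unadjusted p under 0.05: 0, with edgeR 0, with DESeq2 0), and 2 were higher and 5 lower than in ASCs (13.3% and 33.3%). The co-repressors Tle1 (−1.11) and Tle3 (−0.87) and the β-catenin cofactor Bcl9l (−1.01) fell in injured FAPs compared with FAPs.

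In the β-catenin-independent branch (20 of 21 tested), 6 were higher and 7 lower in ASCs than in FAPs (30% and 35%). After injury 1 was higher and 8 lower than in FAPs (5% and 40%), and 3 were higher and 5 lower than in ASCs (15% and 25%). Nfatc1, a calcium-regulated transcription factor, had 12958 ± 3426 in ASCs, 4185 ± 251 in FAPs and 2345 ± 246 in injured FAPs. Daam2, which links Dishevelled to the actin cytoskeleton, had 266 ± 80, 3414 ± 266 and 718 ± 57.5 in the same order of groups. Nfatc1 was thus highest in ASCs (1.60 against FAPs) and Daam2 in FAPs (−3.72 in ASCs and −2.25 in injured FAPs). Of a list of other modulators, which holds extracellular and membrane proteins and also the intracellular Dact1, Dact2, Dact3 and Ndrg1 (12 of 17 tested), 7 were higher and 2 lower in ASCs than in FAPs (58.3% and 16.7%). After injury 2 were higher and 8 lower than in FAPs (16.7% and 66.7%), and 1 was higher and 8 lower than in ASCs (8.33% and 66.7%). Igfbp4, an IGF-binding protein that also antagonises Wnt receptors, stepped down from 34952 ± 2854 in ASCs to 18582 ± 529.6 in FAPs and 8338 ± 359.6 in injured FAPs, and Kremen1, a Dkk receptor, fell in injured FAPs against FAPs (−0.73).

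Genes reported as β-catenin targets (12 of 14 tested, members left out) went in both directions, with 4 higher and 3 lower in ASCs than in FAPs (33.3% and 25%). After injury 5 were higher and 3 lower than in FAPs (41.7% and 25%), and 4 higher and 5 lower than in ASCs (33.3% and 41.7%). Myc had 30789.8 ± 5120.4 in ASCs, 5949.6 ± 739.8 in FAPs and 11232 ± 1527 in injured FAPs. Cd44 had 13454 ± 5409, 3459 ± 58.2 and 18549.9 ± 1529 in the same order. Both were thus lowest in FAPs, and in injured FAPs they rose by log2 fold changes of 0.91 and 2.42 while Axin2 and Nkd1 fell. Fosl1 rose as well (3.94), from 211 ± 50.4 to 3195 ± 214. These genes are induced by many other signals too, and the share of β-catenin in their values was not tested.

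These values are RNA levels of sorted cells on a single day and say nothing about protein, secretion or signalling. FAPs had 2 libraries, so each of their group values rests on a pair of samples. ASCs and FAPs differ in tissue as well as in cell type, and injury and the change in accompanying cells came together, so in both cases the parts cannot be told apart. The single CD31+CD45+ library had the fewest reads (13091077) and no replicate.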

How the data were processed

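RNA of sorted cells was sequenced in 9 libraries, namely 3 of ASCs and 2 of FAPs after NaCl, 3 of FAPs after glycerol (injured FAPs) and 1 of CD31+CD45+ cells after glycerol, all on day 1. The authors deposited a table of 26214 genes whose unit is signal, here normalised counts. By the labels and methods, reads were filtered with fastq_illumina_filter 0.1, checked with FastQC 0.11.9, aligned to mm10 with HISAT2 2.2.1, counted with featureCounts of Subread 2.0.1 and normalised with DESeq2 1.34.0. Strand setting and the handling of reads with several positions are not given in the sources used here. Divided by the smallest step of each library, 100% of values were whole numbers within 0.01, so reads could be recovered. Of the columns, 2 were empty and were left out.

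Values were compared as log2(value + 1) with limma 3.58.1 in R 4.3.3 (lmFit, contrasts, eBayes with trend), with a mean for each of the 3 groups and no covariate. Genes with a mean of at least 10 over 8 libraries were tested, 13601 in all, with Benjamini-Hochberg adjustment. To pass, a gene needed a log2 fold change past 0.58, the fold threshold of the study, together with an adjusted p below 0.05. The CD31+CD45+ library entered no test. On recovered reads edgeR 4.0.16 called 6450 genes in ASCs against FAPs, 7303 in injured FAPs against FAPs and 7000 in injured FAPs against ASCs, and DESeq2 1.42.0 called 6412, 7227 and 6865. The code was tested on simulated data. Reads on genes numbered 24052508 to 27481573 per tested library, and a value of 3 reads was the floor.

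Other alternatives were pseudocounts of 0.5 and 8, no filter or a mean of at least 50, quantile normalization, a common 75th percentile, an unadjusted p, no fold threshold, only the 2 groups compared, a replicate block and each replicate left out. Members with a highest group mean of at least 100 were named with the value of each of the 8 tested libraries (34), and those with a log2 fold change beyond 2 that passed without overlap were given with all statistics (11). The CD31+CD45+ value was given for a few members only. Up to 3 called genes of the highest level were named per pathway list and comparison. Values of Lgr6, Frzb, Tcf7, Lef1, Fzd9, Fzd10, Wnt7b and Wnt10a, of single marker genes, and the mention of Ctnnb1, Apc, Gsk3a and Gsk3b were added after their values were seen. So were the CD31+CD45+ values of Frzb, Sfrp5, Axin2, Tcf7l1, Lgr5, Rspo2 and Wnt10b. Members and lists were chosen with earlier results of these data known. All 58 members matched GENCODE M21.

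The pathway lists were secretion and release (Porcn, Wls, Notum, Trabd2b, Tmed2, Tmed5, Vps26a, Vps29, Vps35, Gpc3, Gpc4, Gpc6), cytoplasmic transduction (Ctnnb1, Apc, Apc2, Gsk3a, Gsk3b, Csnk1a1, Csnk1d, Csnk1e, Csnk1g1, Csnk1g2, Csnk1g3, Dvl1, Dvl2, Dvl3, Frat1, Frat2, Btrc, Fbxw11, Amer1, Tnks, Tnks2, Ctnnbip1), nuclear cofactors (Bcl9, Bcl9l, Pygo1, Pygo2, Tle1, Tle2, Tle3, Tle4, Tle5, Ctbp1, Ctbp2, Chd8, Ep300, Crebbp, Cdc73), the β-catenin-independent branch (Ror1, Ror2, Ryk, Ptk7, Vangl1, Vangl2, Prickle1, Prickle2, Prickle3, Celsr1, Celsr2, Celsr3, Daam1, Daam2, Rhoa, Rac1, Mapk8, Nfatc1, Nfatc2, Nfatc3, Nfatc4), other modulators, not all of them extracellular (Kremen1, Kremen2, Sost, Sostdc1, Apcdd1, Draxin, Igfbp4, Cthrc1, Tpbg, Ndp, Dkkl1, Dact1, Dact2, Dact3, Bambi, Lrp4, Ndrg1) and reported β-catenin targets (Sp5, Ccnd1, Myc, Cd44, Jag1, Fosl1, Twist1, Id2, Tnfrsf19, Ccn1, Ccn2, Ccn4, Ccn5, Cdx2). The marker lists were stromal progenitors (Pdgfra, Ly6a, Cd34, Thy1, Dcn, Col1a1, Pi16, Dpp4), endothelial (Pecam1, Cdh5, Kdr, Flt1, Tek, Vwf, Cldn5, Emcn), lymphatic endothelial (Prox1, Lyve1, Flt4), leukocytes (Ptprc, Cd68, Csf1r, Adgre1, Lyz2, Itgam, S100a8, S100a9, Cd74), smooth muscle and pericytes (Rgs5, Acta2, Myh11, Cspg4, Notch3, Des), tenocytes (Scx, Tnmd, Mkx, Fmod, Thbs4, Kera), satellite cells (Pax7, Myf5, Myod1), muscle fibres (Acta1, Ckm, Myh4, Tnnt3), epithelial cells (Epcam, Krt5, Krt14, Krt8, Krt18, Cdh1), adipocytes (Adipoq, Plin1, Cidec) and mesothelial cells (Msln, Upk3b, Wt1). A further marker list is not reported here.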

Additional observations from a re-analysis of the deposited data

Results flagged for a closer look

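In the library of CD31+CD45+ cells, which entered no comparison, 3 members were at least 100 and at least 2 times the highest of the 8 ASC, FAP and injured FAP libraries. Fzd6 had a value of 1889.6 there, against at most 48.05 in the 8 libraries (39.3-fold). Fzd4 had 4468.1, against at most 1973.8 (2.26-fold). Tcf7 had 171.1, against at most 40.3 (4.24-fold). Frzb, at 53.4, was also above each of the 8 libraries. Sfrp5 (618.4), Axin2 (230.7) and Tcf7l1 (3429.2) were above every injured FAP library there, whereas Lgr5, Rspo2 and Wnt10b were at 0. Their RNA was thus not confined to the sorted stromal cells for Frzb, Sfrp5, Axin2 and Tcf7l1. The library had no replicate, so the spread of these values is not known. It also held RNA of several cell types, with summed markers of 287487 for endothelium, 80739 for smooth muscle and pericytes and 29265 for leukocytes. Sums of lymphatic endothelial (6915), muscle fibre (2487.5) and satellite cell markers (403) were highest there too. The part of each cell type in these values was not tested.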

How the results depend on the processing

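Over 20 alternatives to the processing, 2613 fold changes of members were computed, of which 2530 kept the outcome of the test, 29 no longer passed, 54 newly passed and 0 passed in the other direction. Among the 2530, 37 fold changes that passed neither way changed sign. Of 81 results that passed, 74 did so under every such alternative, and of 51 that did not pass, 29 never did. The count of genes that passed, and of members that were lower, stayed within 1.5 times in each comparison. With only the 2 groups compared, 7 members were higher in injured FAPs against FAPs in place of 4, and the cause was not tested. In injured FAPs against ASCs 3 members in place of 5 were higher with a mean of at least 50, where fewer genes were tested, and 8 with a common 75th percentile, for which the cause was not tested. With a block for the replicate number, 6287 genes passed in ASCs compared with FAPs, and 7046 and 6861 in injured FAPs compared with FAPs and then ASCs, with 11, 3 and 5 members higher and 14, 27 and 21 lower. Once group means were taken out, correlations between libraries of the same number in different groups ran from −0.054 to 0.045. The numbers thus did not pair the samples. Another alternative, chosen after seeing the data, left out ASC replicate 1 and injured FAP replicate 2 together. Among the tested libraries these had the highest sums of epithelial and of leukocyte markers. Without them 6075, 7258 and 6591 genes passed, with 11, 4 and 7 members higher and 15, 28 and 20 lower. Without FAP replicate 1 or 2, the lone FAP library was assumed to vary like the other groups. The effect of depth on members of a few reads, such as Lgr6, was not tested.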
